A study of Mus musculus with 6 samples.

Results

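A set of 9 genes that encode transcription factors of the macrophage lineage was followed in anti-inflammatory (M2) mouse macrophages (Mφs) after inhibition of a tRNA-derived fragment. The set was chosen by name, with earlier results of these data known, and holds Spi1, Maf, Cebpa, Cebpb, Cebpd, Zeb2, Runx1, Mef2c and Mitf. All 9 had a row among the 41549 genes of the table, and all 9 were among the 11933 genes with enough reads to be tested. The cells were bone marrow-derived Mφs of wild type young adult C57Bl/6N mice, grown with macrophage colony-stimulating factor (M-CSF), transfected with an antisense oligonucleotide and then exposed to IL-4 and IL-13. The 3 libraries of the αGlu group came from cells transfected with a locked nucleic acid inhibitor of 5′tRF-Glu(CTC), a piece of a glutamate tRNA that includes its 5′ end, and the 3 of the Ctr group from cells given a control inhibitor, so that both groups carried an oligonucleotide and lipofectamine. The study describes its libraries as independent experiments, and its methods count each preparation from another animal as a replicate of primary cells.

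Lineage transcription factors bind the enhancers and promoters of macrophage genes and keep them accessible. PU.1, encoded by Spi1, sets the myeloid enhancer landscape together with C/EBP and RUNX1 proteins, and factors such as MAF, MITF and MEF2C act on parts of it, in tissue residence and self-renewal, in lysosome and osteoclast genes, and in inflammatory responses. C/EBPβ is also induced by IL-4 and by inflammatory signals and is needed for genes of the M2 program such as arginase 1.

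The sequences below are shown because the oligonucleotide defines the groups and because Cebpa and Cebpb lay on opposite sides of Ctr in 2 of the 3 αGlu libraries. In the target, capitals mark the bases that pair with the oligonucleotide, which are bases 2 to 21 of the fragment counted from its 5′ end. For each gene the 250 bases before the transcription start are given from RefSeq (GRCm38.p6), at chr7:35119043-35119292 on the plus strand for Cebpa and at chr2:167688665-167688914 on the plus strand for Cebpb. Capitals there mark a TATA box (TATAAA) for Cebpa and the core of a cAMP response element (TGACG, or CGTCA on the other strand) for Cebpb.
Antisense oligonucleotide: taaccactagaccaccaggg
Target: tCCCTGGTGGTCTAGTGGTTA
Cebpa: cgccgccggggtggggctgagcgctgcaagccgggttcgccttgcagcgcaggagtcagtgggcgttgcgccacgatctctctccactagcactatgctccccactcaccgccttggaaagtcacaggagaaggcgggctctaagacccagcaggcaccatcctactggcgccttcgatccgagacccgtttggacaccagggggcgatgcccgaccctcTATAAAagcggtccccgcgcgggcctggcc
Cebpb: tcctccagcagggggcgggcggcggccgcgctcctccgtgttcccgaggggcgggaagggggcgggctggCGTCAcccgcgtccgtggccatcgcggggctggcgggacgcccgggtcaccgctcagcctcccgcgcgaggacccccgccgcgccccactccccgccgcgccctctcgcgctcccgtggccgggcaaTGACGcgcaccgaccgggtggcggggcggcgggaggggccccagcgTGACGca

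The Cebpa window held TATAAA from position -30 to -25 relative to the start, and the Cebpb window held the TGACG core 3 times, at -180 to -176, -53 to -49 and -7 to -3. On either strand, TATAAA occurred in 12.3% and TGACG in 17.9% of the 32536 upstream windows of this length. Exact matches to an ETS form (GGAAGT, in 19.8% of windows), a C/EBP motif (TTGCNNAA, 9.6%) and an E-box (CACGTG, 6.0%) were also searched on both strands. None of these exact forms occurred in the Cebpa or the Cebpb window. Other forms of these motifs were not searched, and the shorter ETS core GGAA is present in both printed windows. Such matches describe letters and not binding sites. Of the 9 genes, 6 had a window in the RefSeq table, namely Cebpa, Cebpb, Zeb2, Runx1, Mef2c and Mitf. Among the other windows, the C/EBP motif occurred in the first of the 4 Zeb2 windows (TTGCAAAA at -221 to -214) and in the first of the 3 Mitf windows (TTGCGGAA at -129 to -122). GGAAGT occurred as ACTTCC in the first of the 3 Mef2c windows at -58 to -53, and the E-box in the first of the 2 Runx1 windows at -71 to -66. The TGACG core was not particular to Cebpb. It also occurred in Zeb2 windows 2 and 3, which overlap (-67 to -63 and -93 to -89). Mitf window 3 held it at -153 to -149 and, as CGTCA, at -150 to -146. Likewise TATAAA occurred as TTTATA in Mef2c windows 1 and 2 (-107 to -102 and -22 to -17) and in Mitf window 3 (-175 to -170).

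The libraries held 17912831 to 30386653 reads over exons, with 14539 to 15295 genes detected, and no pair agreed within sampling noise. Library αGlu 1 stood apart from its group. Across all genes tested, its log2 CPM (reads scaled to a common library size) correlated with αGlu 2 and αGlu 3 at a Pearson r of 0.929, and with the Ctr libraries at 0.966 to 0.982, while αGlu 2 and αGlu 3 correlated with each other at 0.992. Fold changes of the members are therefore given with and without αGlu 1. Because αGlu 1 was set apart by its likeness to Ctr in these same data, leaving it out tends to enlarge differences and lower adjusted p-values. Values without it rest on αGlu 2 and 3 alone and are descriptions, not independent support. The labels give no batch. Macrophage markers such as Lyz2 were high in every library (summed CPM of 7 markers from 11819 to 18544), whereas the summed CPM of dendritic cell markers was at most 2.34 and that of lymphocyte markers at most 0.346. The summed CPM of 11 neutrophil markers lay between 26.6 and 69.9, most of it from Mmp8 (21.7 to 63.0 CPM), and Ly6g had no read. The part of such cells in the values of the members was not tested.

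None of the 9 genes was called between αGlu and Ctr, by edgeR's quasi-likelihood test with Benjamini-Hochberg adjustment over all genes tested (a call needs an adjusted p under 0.1 together with a log2 fold change beyond 1 in either direction). The share of all genes called was 0.0%. At an unadjusted p under 0.05, Cebpb was higher in αGlu and Spi1 and Mef2c were lower, which is 3 of 9, beside 24.7% of all genes tested. Of the other tools, DESeq2 called 2 of the 9, Cebpb and Mef2c (8.16% of all genes, 4.23% higher and 3.93% lower). Limma-voom (0.0%), the edgeR likelihood-ratio test (7.53%) and a fit with the replicate number as a block (0.142%) called 0 of the 9. The groups did not overlap for Spi1, Cebpa and Mef2c, which is 3 of 9, beside 30.2% of all genes. All 3 were lower in αGlu, beside 15.9% of all genes. No member lay higher without overlap, beside 14.2% of all genes. The median log2 fold change of the 9 was 0.11, with 5 above and 4 below 0, against 0.02 over all genes. Without αGlu 1, the same test called 4 of 9, with Cebpb and Cebpd higher and Cebpa and Mef2c lower, beside 18.6% of all genes (8.05% higher and 10.5% lower). When the limit on the fold change was also dropped, Spi1 was called as lower and Maf as higher, which gave 6 of 9, beside 49.1% of all genes (23.5% higher and 25.6% lower).

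**Figure D1:**
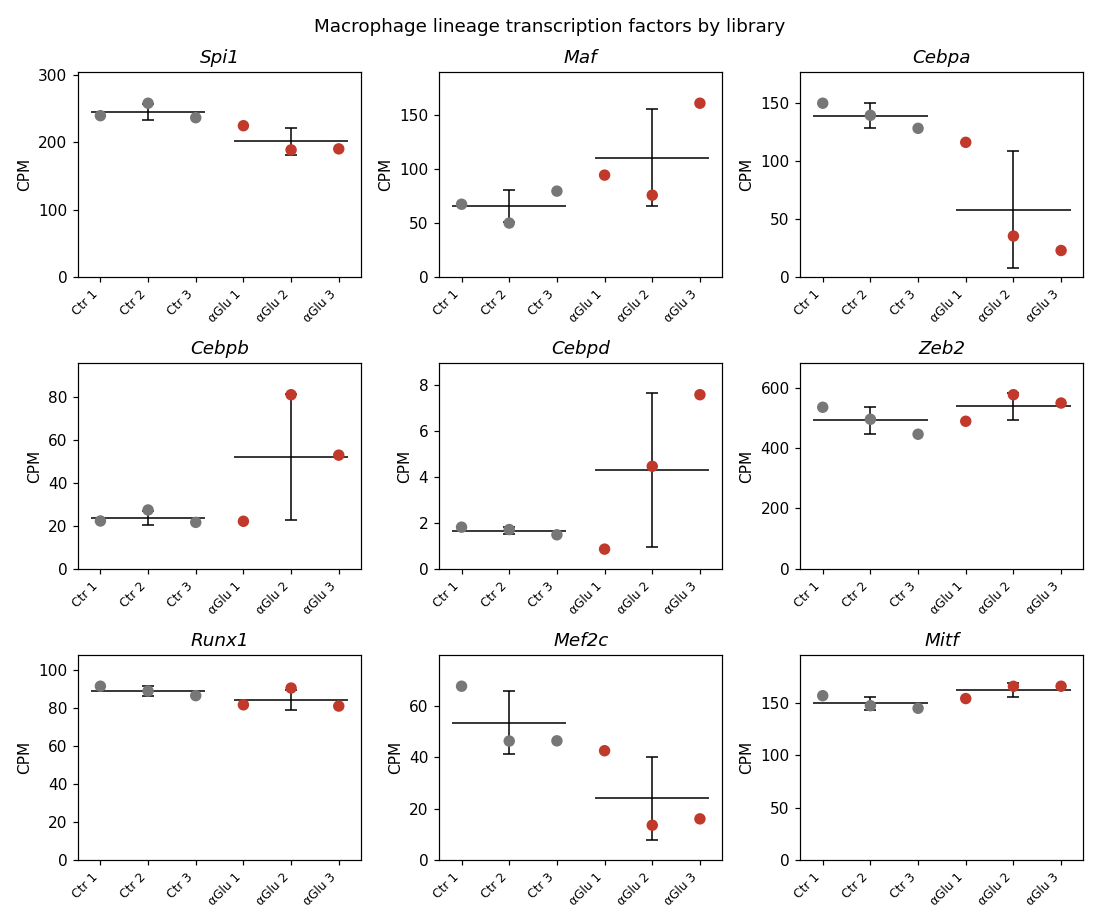
Level of each of the 9 transcription factor genes in every library, in CPM, with Ctr libraries in grey and αGlu libraries in red. Horizontal lines give the group mean and vertical bars its SD (n = 3). For Cebpa, Mef2c and Cebpb, αGlu 1 lies near the Ctr libraries and away from αGlu 2 and 3, whereas Zeb2, Runx1 and Mitf lie close together in all 6.

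In αGlu 2 and 3, Cebpa was lower and Cebpb and Cebpd were higher than in every Ctr library, whereas αGlu 1 lay close to or below Ctr for all 3 genes. C/EBPα directs granulocyte and monocyte precursors out of the cell cycle, and its gene has a single exon (GRCm38 chr7:35119293-35121928, plus strand). Cebpa had 149, 139 and 128 CPM in Ctr 1, 2 and 3, and 116, 35.4 and 23.03 CPM in αGlu 1, 2 and 3. Every αGlu library was below every Ctr library, with αGlu 1 just under the lowest Ctr library and the other 2 far below. The mean was 139 ± 10.8 CPM in Ctr and 58.1 ± 50.4 CPM in αGlu (SD, n = 3). This is a log2 fold change of -1.26 ± 0.59 (SE), with a 95% interval of -2.71 to 0.19. Cebpa was not called (edgeR adjusted p 0.24). Without αGlu 1 the log2 fold change was -2.25 ± 0.20 (edgeR adjusted p 0.000384).

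C/EBPβ, which responds to cytokines and drives inflammatory and M2 genes, is encoded by a single exon at chr2:167688915-167690418 on the plus strand. Cebpb had 22.2, 27.3 and 21.6 CPM in the Ctr libraries. In αGlu it had 22.1, 80.8 and 52.8 CPM. Library αGlu 1 lay inside the Ctr range, so that the groups overlapped, while αGlu 2 and 3 were above all Ctr libraries. Cebpb had a log2 fold change of 1.13 ± 0.44 with all libraries, with a 95% interval of 0.05 to 2.22 (edgeR adjusted p 0.194). Without αGlu 1 the log2 fold change was 1.49 ± 0.19 (edgeR adjusted p 0.00177). DESeq2 called Cebpb with all 6 libraries, at a log2 fold change of 1.12 (adjusted p 0.0876).

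C/EBPδ, an acute-phase factor induced by inflammatory stimuli, had the lowest CPM of the 9 in every library. Cebpd had 40, 41 and 32 reads in Ctr 1, 2 and 3, and 15, 142 and 207 reads in αGlu 1, 2 and 3, which are 1.82, 1.71 and 1.48 CPM against 0.86, 4.47 and 7.59 CPM. Library αGlu 1 was the lowest of all 6 and αGlu 2 and 3 were the highest, so the αGlu libraries lay on both sides of Ctr. The log2 fold change of Cebpd was 1.37 ± 0.70, with a 95% interval of -0.34 to 3.08 (edgeR adjusted p 0.263). Without αGlu 1 the log2 fold change was 1.84 ± 0.28 (edgeR adjusted p 0.00324). On the opposite strand, Spidr shares 562 exonic bases with Cebpd, and had 325, 386 and 345 reads in Ctr and 274, 920 and 860 reads in αGlu. It was thus highest in the same libraries as Cebpd. The sources used here do not say whether the counting used strand, so that reads of the shared bases may be split between the genes, and the part of Spidr in the Cebpd values was not tested. Cebpb shares 312 exonic bases with Tmem189 on the opposite strand, which had 5899, 8108 and 6607 reads in Ctr and 5178, 5783 and 4522 in αGlu, and so did not move with Cebpb. The reads of Spidr and Tmem189 are not scaled to library size, which was smallest in αGlu 1 and largest in αGlu 2.

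Levels of different genes were compared per length, in TPM, a unit scaled by gene length and depth. Cebpb over Cebpa was 0.261, 0.345 and 0.296 in the Ctr libraries and 0.334 in αGlu 1, compared with 4.001 and 4.016 in αGlu 2 and 3. Thus Cebpa was the main C/EBP transcript in Ctr and in αGlu 1, with 59.7% to 66.0% of the TPM of the family, and Cebpb in αGlu 2 and 3, with 67.1% and 61.0%. Cebpa was left with 16.8% and 15.2% there. The total of the family was 264, 252 and 233 TPM in Ctr and 228, 257 and 189 TPM in αGlu. Cebpg, which encodes a partner without an activation domain, had 77.4, 73.4 and 82.5 CPM in Ctr and 83.2, 65.0 and 65.1 CPM in αGlu.

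**Figure D2:**
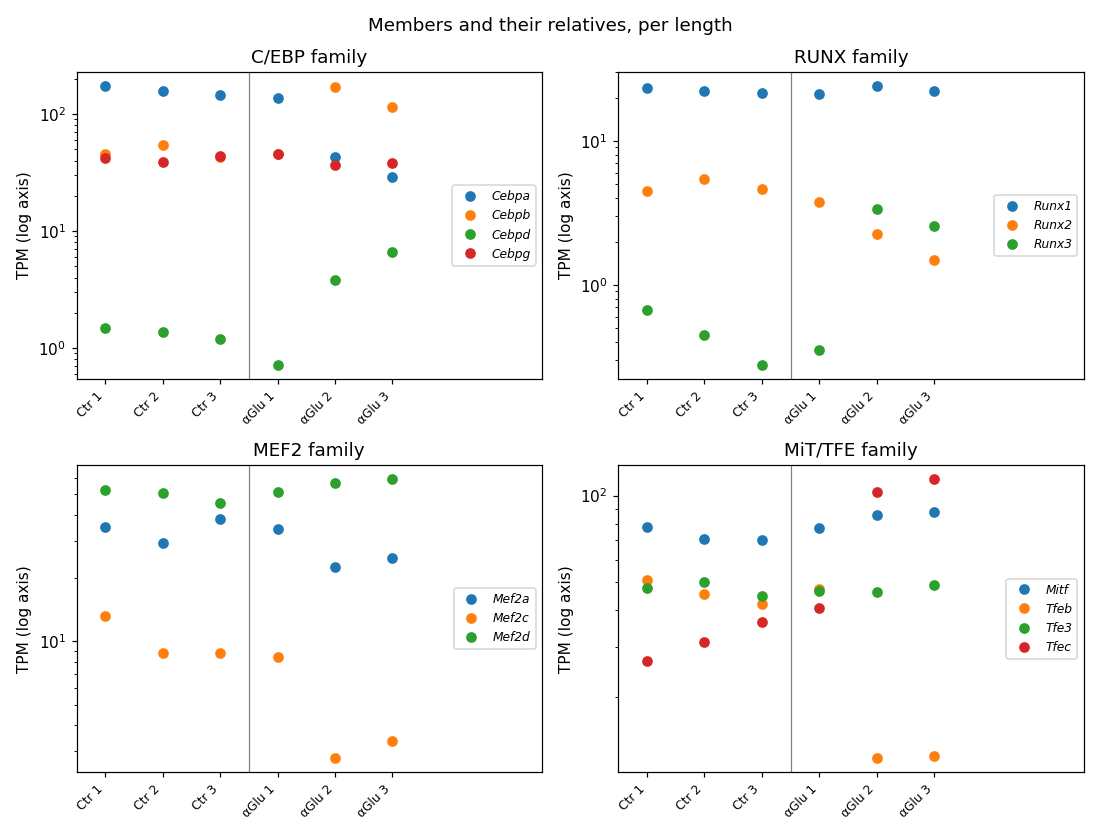
TPM, on a log axis, of C/EBP, RUNX, MEF2 and MiT/TFE genes in each of the 6 libraries, by family. In αGlu 2 and 3 Cebpb lies above Cebpa and Tfec above Mitf, whereas in the Ctr libraries and αGlu 1 Cebpa and Mitf are the highest of their families.

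Mef2c and Spi1 were lower in all 3 αGlu libraries. MEF2C is a MADS-box factor that takes part in monocyte fate and macrophage inflammatory gene expression (gene at chr13:83504034-83667080, plus strand). Mef2c had 67.6, 46.3 and 46.4 CPM in Ctr, and 42.6, 13.6 and 16.1 CPM in αGlu. The groups did not overlap, although αGlu 1 was close to Ctr 2 and 3. For Mef2c the log2 fold change was -1.16 ± 0.46, with a 95% interval of -2.29 to -0.02 (edgeR adjusted p 0.199). Without αGlu 1 the log2 fold change was -1.85 ± 0.20 (edgeR adjusted p 0.000894). DESeq2 called Mef2c with all 6 libraries (log2 fold change -1.16, adjusted p 0.0932). Mef2c made up 9.55% to 13.1% of the TPM of the MEF2 family in Ctr, 8.96% in αGlu 1 and 3.39% and 3.85% in αGlu 2 and 3. Mef2d, the main MEF2 transcript, lay at 91.1 to 102 CPM in Ctr and 99.2 to 107 CPM in αGlu, and Mef2a at 144 to 186 CPM and 103 to 161 CPM. Hdac9 and Hdac4, class IIa histone deacetylases that bind MEF2 proteins and repress their targets, went the other way in αGlu 2 and 3. Hdac9 had 1.59 to 2.73 CPM in Ctr and 1.78, 21.7 and 21.1 CPM in αGlu. Hdac4 had 9.74 to 13.6 CPM in Ctr and 12.1, 23.4 and 19.4 CPM in αGlu. Their log2 fold changes without αGlu 1 were 3.29 ± 0.19 (edgeR adjusted p 8.86e-05) and 0.92 ± 0.17 (edgeR adjusted p 0.00629), respectively. With all libraries they were 2.77 ± 0.87 and 0.71 ± 0.27 (edgeR adjusted p 0.162 and 0.187). The further histone deacetylase genes Hdac5 and Hdac7 had log2 fold changes of -0.09 ± 0.11 and 0.24 ± 0.26 (edgeR adjusted p 0.614 and 0.558). Without αGlu 1 these were -0.19 ± 0.08 and 0.42 ± 0.20 (edgeR adjusted p 0.0924 and 0.15).

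Spi1 encodes PU.1, the ETS factor required for Mφs to form (chr2:91082390-91115756, plus strand). Spi1 had 239.7, 258 and 237 CPM in Ctr 1, 2 and 3, and 225, 189 and 190.5 CPM in αGlu 1, 2 and 3. The difference was small, but each αGlu library was below each Ctr library. The log2 fold change was -0.28 ± 0.11, with a 95% interval of -0.54 to -0.02 (edgeR adjusted p 0.188), and -0.37 ± 0.08 without αGlu 1 (edgeR adjusted p 0.0147), which is under the limit on the fold change. Spic, which encodes the ETS relative SpiC of red pulp Mφs, had 5.32, 5.14 and 6.08 CPM in Ctr and 7.80, 30.5 and 22.2 CPM in αGlu, without overlap. For Spic the log2 fold change was 1.87 ± 0.48 (edgeR adjusted p 0.156; without αGlu 1, 2.25 ± 0.16 and 0.000193). Ets2, an ETS factor downstream of growth factor signals, had 10.9 to 11.8 CPM in Ctr, 9.35 CPM in αGlu 1, and 134 and 145 CPM in αGlu 2 and 3. The log2 fold change of Ets2 was 3.09 ± 0.93 with all libraries (edgeR adjusted p 0.16) and 3.62 ± 0.08 without αGlu 1 (edgeR adjusted p 5.15e-06). Of the further ETS relatives, Etv6 was called without αGlu 1 only when the fold limit was dropped (0.69 ± 0.09, edgeR adjusted p 0.00185), and likewise Elf4 (-0.39 ± 0.09, 0.0195) and Fli1 (0.34 ± 0.12, 0.073), whereas Elf1 was not (-0.15 ± 0.10, 0.258). With all libraries the adjusted p of these 4 genes was 0.157 to 0.986.

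c-MAF, a bZIP factor tied to IL-10 and to the gene program of resident Mφs, is encoded at chr8:115682942-115707794 on the minus strand. Maf had 67.4, 50.03 and 79.5 CPM in Ctr and 94.2, 75.7 and 160.5 CPM in αGlu. The groups overlapped because αGlu 2 was below Ctr 3, and αGlu 3 was the highest by far. The log2 fold change of Maf was 0.75 ± 0.32 with a 95% interval of -0.03 to 1.52 (edgeR adjusted p 0.212), and 0.84 ± 0.33 without αGlu 1 (edgeR adjusted p 0.087). All 3 αGlu libraries were above the Ctr mean. The small MAF genes Mafg and Mafk had log2 fold changes without αGlu 1 of 0.71 ± 0.09 (edgeR adjusted p 0.00153) and -0.53 ± 0.14 (edgeR adjusted p 0.0224). With all libraries they were 0.52 ± 0.20 and -0.23 ± 0.24 (edgeR adjusted p 0.187 and 0.557).

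The remaining 3 members, Zeb2, Runx1 and Mitf, showed small differences. ZEB2 is a zinc-finger repressor that maintains tissue identity of Mφs (chr2:44983632-45117395, minus strand). Zeb2 had 536, 496 and 446 CPM in Ctr and 489, 577 and 550 CPM in αGlu, and the groups overlapped. Its log2 fold change was 0.13 ± 0.13, with a 95% interval of -0.18 to 0.44 (edgeR adjusted p 0.529), and 0.19 ± 0.11 without αGlu 1 (edgeR adjusted p 0.201). The antisense gene Zeb2os, which shares 653 exonic bases with Zeb2, had 247, 243 and 266 reads in Ctr and 218, 477 and 402 reads in αGlu. These reads are not scaled to library size, which was smallest in αGlu 1 and largest in αGlu 2.

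RUNX1, a Runt-domain factor of blood stem cells that opens chromatin at Spi1, is encoded at chr16:92601466-92826149 on the minus strand. Runx1 had 91.5, 89.0 and 86.5 CPM in Ctr and 81.7, 90.5 and 81.1 CPM in αGlu. The groups overlapped, and the lowest and the highest of the 6 libraries differed less, as a ratio, than for any other member. The log2 fold change was -0.08 ± 0.08, with a 95% interval of -0.26 to 0.11 (edgeR adjusted p 0.544), and -0.06 ± 0.08 without αGlu 1 (edgeR adjusted p 0.614). Its sign changed to 0.0095 when libraries were scaled by their size alone. The relatives of Runx1 were less even. Runx2, the factor of bone-forming cells, had 12.9, 16.2 and 13.8 CPM in Ctr and 10.8, 6.23 and 4.03 CPM in αGlu (log2 fold change -1.04 ± 0.35, edgeR adjusted p 0.172; without αGlu 1, -1.47 ± 0.21 and 0.00261). Accordingly, Runx1 kept 78.8% to 84.5% of the TPM of the RUNX family in all 6 libraries, and Runx2 held 15.7% to 19.6% in Ctr, 15.01% in αGlu 1 and 7.59% and 5.73% in αGlu 2 and 3.

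MITF is a bHLH-zip factor of lysosomal and osteoclast genes (chr6:97807052-98021349, plus strand). Mitf had 157, 147 and 145 CPM in Ctr and 154, 166 and 166 CPM in αGlu, with αGlu 1 inside the Ctr range. The log2 fold change was 0.11 ± 0.08, with a 95% interval of -0.09 to 0.31 (edgeR adjusted p 0.394), and 0.14 ± 0.08 without αGlu 1 (edgeR adjusted p 0.197). Among its relatives of the MiT/TFE family, Tfeb and Tfec of αGlu 2 and 3 lay far from Ctr. Tfeb, which encodes the factor that activates lysosome and autophagy genes upon starvation, had 79.6 to 94.2 CPM in Ctr, 86.7 CPM in αGlu 1, and 21.8 and 21.6 CPM in αGlu 2 and 3. Tfeb had a log2 fold change of -1.01 ± 0.58 with all libraries (edgeR adjusted p 0.302) and of -2.01 ± 0.10 without αGlu 1 (edgeR adjusted p 4.64e-05). Tfec, the family member of Mφs that is induced by IL-4, had 48.6, 58.3 and 68.2 CPM in Ctr and 73.4, 179 and 194 CPM in αGlu, without overlap, at a log2 fold change of 1.35 ± 0.38 (edgeR adjusted p 0.158), and 1.67 ± 0.14 without αGlu 1 (edgeR adjusted p 0.000367). For Tfe3 the log2 fold change was -0.09 ± 0.08 (edgeR adjusted p 0.488), and -0.11 ± 0.09 without αGlu 1 (edgeR adjusted p 0.347). Of the family's TPM, Mitf took 33.4% to 38.3% in every library, whereas Tfeb took 21.7% to 25.1% in Ctr and 22.4% in αGlu 1, and 4.98% and 4.75% in αGlu 2 and 3.

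**Figure D3:**
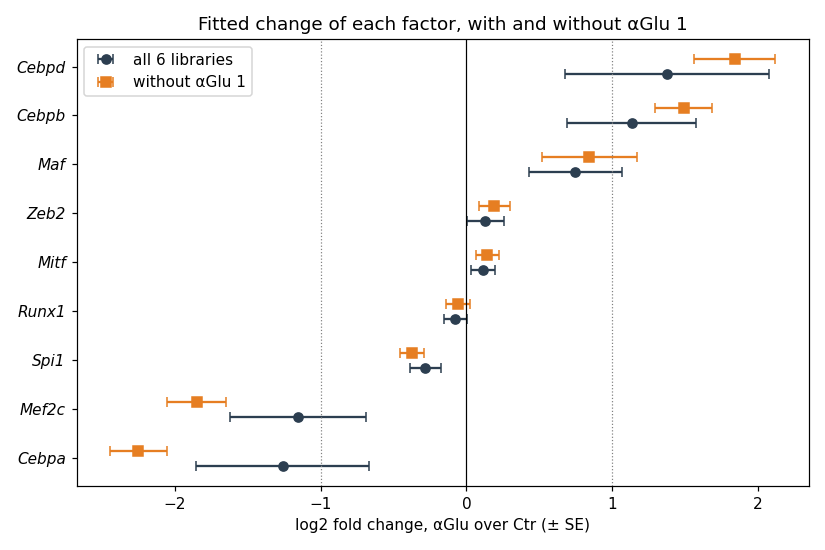
Log2 fold change, αGlu over Ctr, of the 9 members with all 6 libraries and without αGlu 1, with bars for the SE and dotted lines at the fold limit of -1 and 1. Without αGlu 1 the estimates of Cebpa, Mef2c, Cebpb and Cebpd lie further from 0 and have shorter bars, while those of Runx1, Mitf and Zeb2 stay between -0.08 and 0.19.

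By level per length, the members spanned from 1.35 ± 0.15 TPM for Cebpd to 274 ± 11.4 TPM for Spi1 in Ctr (SD, n = 3). In descending order, the Ctr means were 274 TPM for Spi1, 159 for Cebpa, 73.6 for Zeb2, 72.9 for Mitf, 47.5 for Cebpb, 24.03 for Maf, 22.3 for Runx1, 10.3 for Mef2c and 1.35 for Cebpd. Neighbours in this order did not share values between Ctr libraries, except for Zeb2 and Mitf, and Maf and Runx1, whose ranges overlapped. In αGlu 2 and 3 Spi1 was still first, with 225 and 232 TPM, and was followed by Cebpb with 172 and 115 TPM. Cebpa had 43.0 and 28.7 TPM in these libraries, below Zeb2 and Mitf, and Cebpd exceeded Mef2c. Among all genes ranked by TPM, Cebpa went from rank 743 to 924 in Ctr to rank 3072 and 4302 in αGlu 2 and 3, and Cebpb from rank 2374 to 2899 to rank 778 and 1220. Spi1 remained between rank 461 and 588 in all libraries.

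Over the 6 libraries, log2 CPM of Cebpa correlated with that of Mef2c at a Pearson r of 0.955 and with that of Cebpb at -0.893. These values describe 6 points that share the separation of αGlu 2 and 3 from the rest. Among 5098 genes whose mean log2 CPM reached 5, the most alike were Gm49369 for Cebpa (r = 0.998), Ppp1r15a for Cebpb (0.998), Rock2 for Mef2c (0.999), Abcd3 for Maf (0.983), Zfp516 for Zeb2 (0.992), Alas1 for Runx1 (0.994) and Xpot for Mitf (0.998). For Cebpd it was Slc25a10 (0.997). Each of these r values is the highest found in a search over all genes compared, on only 6 points. Such a search can return a high r for almost any profile, also one without a group difference. Runx1, whose groups overlapped, still reached 0.994. The values therefore cannot show shared regulation, and no conclusion is drawn from them.

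Genes commonly described as regulated by the members were counted next. Their lists were written from general knowledge, but with earlier results of these data known, so the counts are descriptions. With all libraries, 0 genes of any list were called. Here and below, genes that rose or fell without αGlu 1 are those called, at an edgeR adjusted p under 0.1 and beyond the fold limit. All 17 myeloid genes tied to PU.1 or C/EBP factors were tested. At an unadjusted p under 0.05, 3 were higher and 1 lower (12.7% and 11.9% of all genes). The median log2 fold change was 0.15, against 0.02 over all genes. Without αGlu 1, 4 rose and 1 fell (8.05% and 10.5% of all genes). Csf3r, the G-CSF receptor gene, had 103, 141 and 158 CPM in Ctr and 183, 536 and 607 CPM in αGlu. Its difference on the log2 scale was 1.72 ± 0.46 (edgeR adjusted p 0.157), and 2.09 ± 0.19 without αGlu 1 (edgeR adjusted p 0.000407). Msr1, a scavenger receptor gene, had a log2 fold change of 0.98 ± 0.32 with all libraries, whose groups overlapped (edgeR adjusted p 0.167), and of 1.26 ± 0.13 without αGlu 1 (edgeR adjusted p 0.000706). Csf2ra, a chain of the GM-CSF receptor, and Tyrobp, the adaptor DAP12, were lower by less than the fold limit (-0.91 ± 0.12 and -0.92 ± 0.09, edgeR adjusted p 0.00189 and 0.000547 without αGlu 1; -0.67 ± 0.21 and -0.59 ± 0.25, 0.161 and 0.211, with all libraries).

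Of 11 genes tied to MAF, 10 were tested, 2 were higher and 0 lower at an unadjusted p under 0.05 (12.7% and 11.9% of all genes), and the median log2 fold change was 0.22. Without αGlu 1, 4 rose and 2 fell (8.05% and 10.5% of all genes). Stab1, a scavenger receptor gene, had 148, 90.1 and 96.0 CPM in Ctr and 206, 320 and 359 CPM in αGlu, and its groups did not overlap (log2 fold change 1.40 ± 0.29, edgeR adjusted p 0.149; without αGlu 1, 1.60 ± 0.22 and 0.00217). The complement gene C1qa had 1.04 ± 0.35 with all libraries (edgeR adjusted p 0.168) and 1.34 ± 0.15 without αGlu 1 (edgeR adjusted p 0.000956). In contrast, Selenop, which encodes a selenium carrier, and Folr2, the folate receptor β gene, were lower without αGlu 1 (-1.53 ± 0.26 and -1.73 ± 0.24, edgeR adjusted p 0.00466 and 0.00225). With all libraries they had -0.92 ± 0.45 and -0.75 ± 0.60 (edgeR adjusted p 0.256 and 0.434).

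Of 11 genes tied to MITF, TFE3 or TFEB, 10 were tested, 0 were higher and 3 lower at an unadjusted p under 0.05 (12.7% and 11.9% of all genes), and the median was -0.23. Without αGlu 1, 0 rose and 1 of 10 fell, a share near that of all genes (10.5%). Atp6v1h, a proton pump subunit, had a log2 fold change of -0.31 ± 0.10 (edgeR adjusted p 0.163) and Ctsk, the cathepsin of osteoclasts, of -0.94 ± 0.34 (edgeR adjusted p 0.18). Without αGlu 1 these were -0.39 ± 0.08 and -0.87 ± 0.37 (edgeR adjusted p 0.0119 and 0.111). Sqstm1 and Clcn7 had 0.14 ± 0.14 and 0.07 ± 0.17 (edgeR adjusted p 0.537 and 0.808), and the value of Clcn7 was -0.09 without αGlu 1. PU.1 and MITF also act in osteoclasts. The summed CPM of 6 osteoclast markers was 301, 261 and 224 in Ctr and 146, 70.5 and 76.8 in αGlu, with Itgb3 as the most abundant, and Calcr had no read. Of the 5 tested, 0 were called with all libraries, and without αGlu 1 Ocstamp, Dcstamp and Itgb3 fell, Mmp9 rose (log2 fold change 1.91 ± 0.61, edgeR adjusted p 0.049) and Nfatc1 was not called. The part of osteoclast-like cells in the values of the members was not tested. In bulk RNA, fewer cells of a type and less RNA per cell cannot be told apart.

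**Figure D4:**
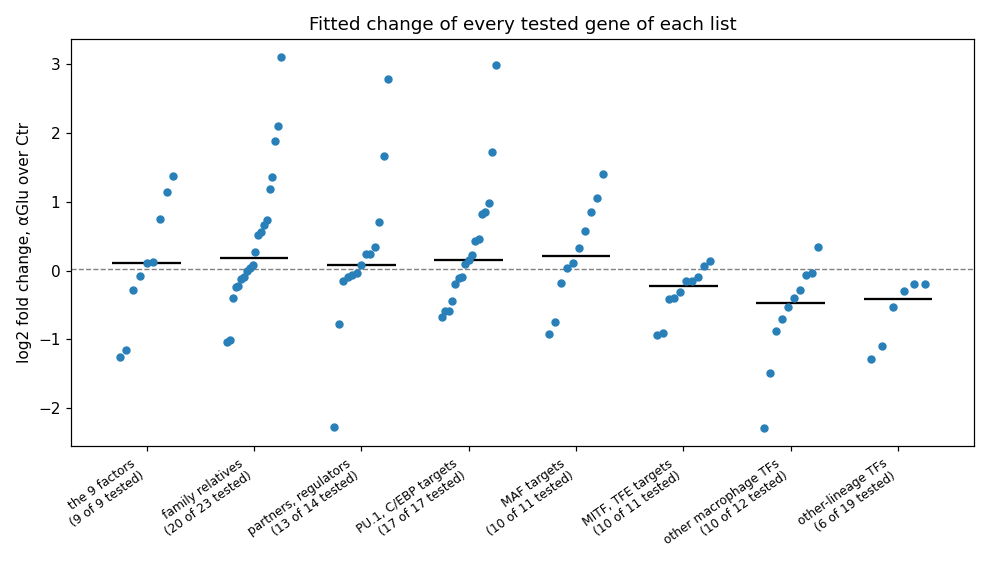
Log2 fold change, αGlu over Ctr with all 6 libraries, of every tested gene of each list, with the list's median as a short line and the median of all genes as a dashed line. Medians run from -0.46 for other Mφ transcription factors to 0.22 for genes tied to MAF, beside 0.02 over all genes.

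The relatives of the members counted together gave 8 higher and 1 lower at an unadjusted p under 0.05 among 20 tested of 23 (12.7% and 11.9% of all genes; median 0.18), and 5 rose and 2 fell without αGlu 1 (8.05% and 10.5% of all genes). These shares of all genes also serve as the background of the next 3 lists. Of 14 partners and regulators of the proteins, 13 were tested, with 3 higher and 0 lower (median 0.08), and 2 rose and 2 fell without αGlu 1. Id2, an inhibitor of bHLH factors, had 289.7 to 398 CPM in Ctr, 343 CPM in αGlu 1 and 138 and 113 CPM in the remaining libraries of αGlu (log2 fold change -0.77 ± 0.44, edgeR adjusted p 0.3; without αGlu 1, -1.43 ± 0.17 and 0.00114). Id3 had 7.72, 8.73 and 23.8 CPM in Ctr and 8.43, 0.346 and 0.0734 CPM in αGlu, so that αGlu 1 lay inside the Ctr range. Its log2 fold change was -2.26 ± 1.41 with all libraries (edgeR adjusted p 0.337) and -5.91 ± 0.85 without αGlu 1 (edgeR adjusted p 0.00269), where it rests on few reads. Among transcription factors of Mφs outside the set, 10 of 12 were tested, with 1 higher and 5 lower (median -0.46), and 0 rose and 4 fell without αGlu 1. Klf4, a Krüppel-like factor of monocytes, had 23.99, 21.5 and 26.8 CPM in Ctr and 17.6, 10.95 and 11.04 CPM in αGlu. Bhlhe40, a factor of Mφ proliferation, had 350.5, 349.8 and 306 CPM in Ctr and 243, 209 and 169 CPM in αGlu. Neither gene overlapped between groups (log2 fold changes -0.87 ± 0.22 and -0.70 ± 0.16, edgeR adjusted p 0.156 for each; without αGlu 1, -1.13 ± 0.12 and -0.83 ± 0.13, 0.000713 and 0.00347), whereas Ikzf1 was higher without overlap (0.33 ± 0.10, edgeR adjusted p 0.161). Of 19 lineage factors of other blood cells, 6 had enough reads to be tested, and 0 were higher and 3 lower (median -0.41). Without αGlu 1, 0 rose and 2 fell of 7 tested. Batf3, a factor of dendritic cells, had 18.4, 20.1 and 22.6 CPM in Ctr and 14.5, 5.51 and 5.47 CPM in αGlu, a log2 difference of -1.28 ± 0.41 (edgeR adjusted p 0.163; without αGlu 1, -1.90 ± 0.12 and 0.000129), and Zbtb46 was at most 0.999 CPM in any library.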

How the data were processed

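The authors sequenced stranded mRNA libraries and made the table with the QIAGEN RNA-seq Analysis Portal. Per the submitters' processing notes the build was GRCm38. The aligner, the annotation release and the treatment of reads that match several genes are not given in the sources used here. For each of 6 libraries they deposited counts of reads over exons, RPKM, TPM and a CPM signal. The deposited counts carry no normalization, the RPKM and TPM the authors deposited are scaled by gene length and depth, and the CPM signal that the authors deposited was not used here. TPM served for levels between genes. Each of the 24 value columns carried the name of its library.

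From the counts, filterByExpr of edgeR 4.0.16 (minimum count 10, total 15) left 11933 of 41549 genes. TMM factors and a quasi-likelihood model with group as its only term were fitted to all 6 libraries in R 4.3.3, two-sided, with Benjamini-Hochberg adjustment over all genes tested, and a call needed an adjusted p under 0.1 with a log2 fold change beyond 1 in either direction. CPM is given relative to library sizes after TMM adjustment, with a prior count of 2 on the log2 scale. The scripts were tested on simulated data. Total counts were 17912831 to 30386653 per library. Alternatives were scaling by RLE, by upper quartiles or by library size alone, dropping the filter or requiring CPM above 1 in 3 libraries, DESeq2 1.42.0, limma-voom (limma 3.58.1), an edgeR likelihood-ratio test, the replicate number as a block, other thresholds and each library left out. Dropping the fold limit without αGlu 1 was added after seeing the data.

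The 9 members and all lists were chosen with earlier results of these data known, so the counts are descriptions. Apart from the members, the text names from each list the 2 genes of smallest unadjusted p in each direction, every relative with a mean of at least 10 TPM in either group, the gene most correlated with each member, and the most abundant marker. For 2 genes that this rule named, the values are not reported here. Runx3, Dcstamp, Ocstamp, Mmp9, Nfatc1, Calcr, Ly6g, Myc, Cd14, Hdac5, Hdac7 and the genes that overlap a member were chosen after their values were seen. Positions are those of GENCODE M21 on GRCm38, and upstream sequences are from RefSeq on GRCm38.p6. The oligonucleotide and its target were read from the supplementary tables of the study. Since the labels do not say whether equal replicate numbers share an animal, p-values measure the spread between these samples.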

Additional observations from a re-analysis of the deposited data

How the results depend on the processing

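The number of genes called was 0 with scaling by RLE, upper quartiles or library size alone, with both other low-count filters, limma-voom and both other thresholds. It was 1119 with DESeq2, 899 with the edgeR likelihood-ratio test and 17 with the replicate block. Leaving out each library gave 0 to 2290 genes, and every count above 0 came from leaving out αGlu 1. Without αGlu 1 and without the fold limit there were 6055. Of the 9 members, DESeq2 called 2, leaving out each library gave 0 to 4, and 6 were called without αGlu 1 and without the fold limit. The direction of a member reversed under 1 alternative, which was Runx1 with library size alone (0.0095). Of the other comparisons of a member with an alternative, 128 kept direction and call, and 6 kept the direction and gained a call. Without 1 library at a time, log2 fold changes ranged from -2.25 to -0.88 for Cebpa, 0.67 to 1.49 for Cebpb, 0.70 to 1.84 for Cebpd and -1.85 to -0.87 for Mef2c, with the value farthest from 0 without αGlu 1 in each case. For Maf they ranged from 0.37 to 0.96, with the lowest value without αGlu 3, and for Spi1 from -0.37 to -0.23. The replicate block rests on numbers alone. Residuals of libraries with the same number correlated at 0.0764, 0.0646 and 0.154, and those with different numbers at -0.112 to 0.0459, and 0 members were called with the block. Depth limits Cebpd, which had 15 to 207 reads. The causes of these differences were not tested.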

Other observations

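Values of 5 genes of the lists stood out after they were seen, and were not named by the rule. Ocstamp and Dcstamp, which encode membrane proteins needed for fusion of osteoclasts and of IL-4-treated Mφs, had 1872, 1787 and 1233 reads and 970, 1198 and 842 reads in Ctr 1, 2 and 3. In αGlu 1, 2 and 3 they had 91, 4 and 4 reads and 149, 7 and 6 reads. For these genes αGlu 1 was well below all Ctr libraries, unlike for Cebpa and Mef2c, where it was close to them. The log2 fold change was -5.49 ± 1.26 for Ocstamp and -4.00 ± 1.31 for Dcstamp with all libraries (edgeR adjusted p 0.156 and 0.166), and both were called by DESeq2 (adjusted p 0.00831 and 0.0684). Myc, a factor of cell growth and division, had a log2 fold change of -2.28 ± 0.77 (edgeR adjusted p 0.17; DESeq2 adjusted p 0.024).

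Runx3, a Runt-domain factor of lymphocytes and some myeloid cells, held 1.05% to 2.35% of the TPM of its family in Ctr, 1.41% in αGlu 1, and 11.4% and 9.74% in αGlu 2 and 3 (log2 fold change 2.09 ± 0.79, edgeR adjusted p 0.187; DESeq2 adjusted p 0.0722). Cd14, the lipopolysaccharide co-receptor gene and a C/EBP target, had a log2 fold change of 2.97 ± 1.03 (edgeR adjusted p 0.174; DESeq2 adjusted p 0.0563). It had 22.1, 30.1 and 17.3 CPM in Ctr and 12.4, 293 and 240 CPM in αGlu. Library αGlu 1 was thus below every Ctr library, and the groups overlapped. Without αGlu 1 the log2 fold change was 3.52 ± 0.23 (edgeR adjusted p 0.000138).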
